A study of Homo sapiens with 5 samples.

Results

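The genes described here are 9 genes of the intestinal crypt and its stem cells, LGR5, ASCL2, SOX9, PROX1, SP5, EPHB2, EPHB3, CD44 and BMP4. They were found by symbol among the 60651 gene identifiers of the count tables. All 9 had 1 identifier each, and 8 had enough reads to be tested. The cells were COLO 320DM, a human colorectal adenocarcinoma line, and poly(A)-selected RNA was sequenced after transfection with siRNAs. In the USP17 siRNA group, 3 libraries carried the labels siIDT, sino4 and siSMPLT, 1 siRNA reagent each. In the control siRNA group, 2 libraries carried the labels siL2 and siNT, which the series names as non-silencing. The first 3 were taken as USP17-targeting by elimination, and the labels give neither siRNA sequences, doses nor times. No label is repeated, so spread between siRNA reagents and spread between libraries cannot be told apart. The p-values speak only of this joint spread. Whether the transfections were made on separate days or batches of cells is not stated. The study's question is how the deubiquitinase USP17 bears on beta-catenin in colorectal cancer.

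In the intestine, Wnt ligands keep stem cells at the base of each crypt by stabilising beta-catenin, which enters the nucleus with TCF factors and switches on genes such as LGR5, ASCL2, SP5 and EPHB2. Colorectal tumours often keep this program on through mutations in the Wnt pathway. EphB receptors hold cells in their place along the crypt axis by repulsion from ephrin-B ligands, and BMP signals oppose the stem cell state.

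Reads in genes came to between 31704821 and 36276143 per library. The 30 annotated copies of USP17 (the USP17L family) had 0 reads on their own strand in all 5 libraries, controls included. RSEM's expected counts for them were also 0 in all 5, so whether the target was lowered was not measurable here. Reads on no gene's own strand, which include reads opposite a gene, made up 7.05% to 7.49% of all reads with USP17 siRNA. With control siRNA they made up 6.37% to 6.58%. The nuclear RNAs NEAT1 (log2 fold change 0.65) and MALAT1 (0.46) were called higher. The part of these differences in the results below was not tested. As a check of cell identity, CDX2, the gut homeobox factor, was abundant at a mean of 1612 TPM over the libraries (abundance scaled per library, a level per transcript length), with a called log2 fold change of -0.31. KRT8 stood at 100.2 TPM, KRT18 at 77.9 TPM and EPCAM at 2.7 TPM. The epithelial markers CDH1, at 0.066 TPM, and KRT19 and VIL1, at 0.038 TPM each, were close to silent. The stem cell marker OLFM4 and the crypt base marker SMOC2 had at most 3 reads in any library, so the cells did not carry the full set of normal crypt base markers. In these bulk samples, fewer cells of a type and less RNA per cell cannot be told apart.

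A pair of short 3′ UTR sequences had been picked in an earlier look at these libraries because genes carrying them were lower with USP17 siRNA, ATCACTC and TCACTCA. The sites in the members are shown here so that the gene values can be read beside them. Capitals mark the 7 bases, 5′ to 3′ on the RNA's strand (written as DNA, GRCh38, GENCODE release 29, plus strand).
LGR5 at chr12:71585303-71585331: gtattgttaacTCACTCAtattgagatca
PROX1 at chr1:214036421-214036449: aaagaaaaataATCACTCtcaagccttgt
CD44 at chr11:35231288-35231316: cccagacaggcTCACTCAagctctttaac
EPHB2 at chr1:22920590-22920618: ggtgcctgtgaATCACTCcgtcatcagcc
The longest annotated 3′ UTR of EPHB2 also holds 4 copies of TCACTCA. The longest 3′ UTRs of SOX9, ASCL2, EPHB3, BMP4 and SP5 hold neither 7-mer. Among 12494 tested genes with an annotated 3′ UTR, 8.82% held ATCACTC and 13.7% held TCACTCA in the longest one. The median log2 fold change was -0.11 in carriers of ATCACTC and -0.01 in the genes without it, and -0.06 in carriers of TCACTCA and -0.01 in the genes without that one. Carriers also had longer 3′ UTRs, with a median of 3459 bases for ATCACTC and 3277 bases for TCACTCA, against 1540.5 and 1490 bases without them, and the part of this length was not tested. The 2 sequences overlap in the 6 bases TCACTC, and since they were chosen on these libraries a match is a description only.

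The crypt genes did not move as a block. LGR5 and PROX1 fell with USP17 siRNA, no member rose by the test, and ASCL2, EPHB2 and BMP4 had overlapping groups. Of the 8 tested members, 2 were called lower and 0 higher in edgeR's quasi-likelihood test with Benjamini-Hochberg adjustment at 0.05, while 4 had an unadjusted p under 0.05 and DESeq2's Wald test called 3 lower and 1 higher. Over all 16341 tested genes, edgeR called 5.82% lower and 4.64% higher, and DESeq2's Wald test called 1318 lower and 1024 higher. Of the 4 members with an unadjusted p under 0.05, EPHB3 had the largest and ranked 2460 by edgeR's p among all tested genes. The members' median log2 fold change was -0.30, against 0.01 for all tested genes. Groups did not overlap for 5 of the 8 members, 4 lower and 1 higher, and for 45.9% of all tested genes (22.6% lower and 23.3% higher). The plot of CPM by library shows the values behind these counts.

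**Figure D1:**
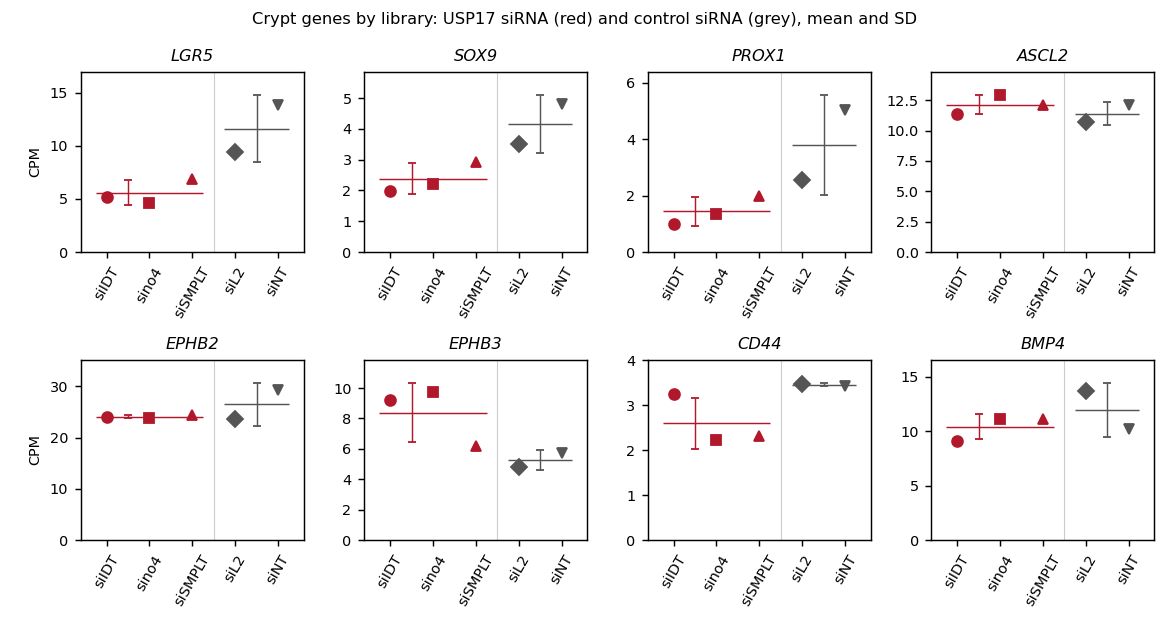
CPM (reads scaled to library size) of the 8 tested crypt genes in each library, with USP17 siRNA libraries in red and control siRNA libraries in grey; horizontal lines are group means and vertical bars SDs. LGR5, SOX9, PROX1 and CD44 lie lower in all 3 USP17 siRNA libraries, EPHB3 lies higher, and ASCL2, EPHB2 and BMP4 overlap.

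LGR5 encodes a receptor for R-spondins, which raise the response to Wnt, and marks cycling crypt base stem cells. It had 170, 150 and 221 reads in siIDT, sino4 and siSMPLT, against 323 and 489 reads in siL2 and siNT. Scaled to library size, these were 5.20, 4.65 and 6.91 CPM with USP17 siRNA, against 9.43 and 13.8 CPM with control siRNA. All 3 USP17 siRNA libraries were below both controls, with siSMPLT nearest to them, and siNT was 1.47-fold above siL2. Group means were 5.59 ± 1.18 CPM (SD, n = 3) and 11.6 ± 3.12 CPM (SD, n = 2). On the log2 scale LGR5 changed by -1.06 ± 0.21 (SE), or to 48.0% of the control level (adjusted p 0.0197, edgeR's quasi-likelihood test). The call was lost without siIDT (adjusted p 0.0807, edgeR, log2 fold change -1.01) and without sino4 (0.097, -0.94). The gene lies on chromosome 12 from 71439770 to 71586310 on the plus strand (GRCh38, GENCODE release 29). RSEM's transcript length, averaged over the gene's transcripts by their estimated abundance, was 4583, 4389 and 4466 bases with USP17 siRNA and 4102 and 4429 bases with control siRNA, with overlapping groups.

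LGR4 and LGR6, its paralogs, and the R-spondin ligands RSPO1 to RSPO4 were described beside it. Of these 6 genes 2 were tested, and 0 were called by edgeR or by DESeq2's Wald test, with 0 at an unadjusted p under 0.05. LGR4 stood at 26.9, 33.5 and 35.5 CPM in siIDT, sino4 and siSMPLT, with 27.4 and 44.6 CPM for siL2 and siNT, with a log2 fold change of -0.17 ± 0.20 (SE). Its groups overlapped, and at a mean of 9.65 TPM it was the more abundant of the LGR receptors in this line, ahead of LGR5 at 2.64 TPM and LGR6 at 0.070 TPM. RSPO2 had a log2 fold change of -0.55 ± 0.33 (SE) with overlapping groups.

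By their profile over the 5 libraries (log2 CPM minus its mean), the genes nearest to LGR5 among 12060 tested genes with a mean log2 CPM of at least 1 were IL15, BEST1 and KLF9. IL15, a cytokine gene, differed from LGR5 by a root-mean-square of 0.077 on the log2 scale. It measured 2.08, 1.98 and 2.72 CPM in siIDT, sino4 and siSMPLT, against 3.5 and 5.18 CPM in siL2 and siNT. BEST1, a chloride channel gene, and KLF9, a zinc finger transcription factor, differed by 0.094 and 0.099. All 3 share with LGR5 the order of the libraries, with sino4 lowest and siNT highest, which their choice by nearness to LGR5 nearly fixes. Among the members themselves the profile nearest to LGR5 was that of SOX9, with a root-mean-square difference of 0.16, followed by PROX1 at 0.29.

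Of the transcription factors PROX1 fell, SOX9 missed the threshold, ASCL2 had overlapping groups and SP5 had next to no reads. PROX1, a homeobox factor, had 32, 44 and 64 reads in siIDT, sino4 and siSMPLT, against 87 and 178 reads in siL2 and siNT. This came to 0.979, 1.36 and 2.0 CPM with USP17 siRNA and to 2.54 and 5.04 CPM with control siRNA. The groups did not overlap, but the controls were 1.98-fold apart, and siL2 was closer to siSMPLT than to siNT. The exact 95% Poisson interval of the reads, which covers counting error only, was 49.3 to 81.7 in siSMPLT and 69.7 to 107 in siL2, so the intervals of these neighbours overlapped. Its change was -1.39 ± 0.35 (SE) on the log2 scale (adjusted p 0.0405, edgeR). The call was lost without siIDT (adjusted p 0.130, log2 fold change -1.17), without sino4 (0.148, -1.35) and without siNT (0.133, -0.81, all edgeR), with limma-voom (0.0512) and with RSEM counts (0.0518). PROX1 lies on chromosome 1 from 213983181 to 214041502 on the plus strand, and its antisense neighbour PROX1-AS1 had at most 6 reads in any library.

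SOX9, which marks the crypt base and is needed for Paneth cells in the mouse, had 65, 71 and 94 reads in siIDT, sino4 and siSMPLT, against 120 and 170 reads in siL2 and siNT. In CPM these were 1.99, 2.2 and 2.94 with USP17 siRNA and 3.5 and 4.81 with control siRNA, with no overlap and siSMPLT again nearest to the controls. Its log2 fold change of -0.81 ± 0.22 (SE) missed the threshold (adjusted p 0.0523, edgeR). It passed without siL2 (adjusted p 0.0196, edgeR), with DESeq2's Wald test (0.0257), with RSEM counts (0.0481, edgeR) and with counts taken without regard to strand (0.0477, edgeR). SOX9 lies on chromosome 17 from 72121020 to 72126420 on the plus strand, and the antisense gene SOX9-AS1 had 4, 10 and 11 reads with USP17 siRNA and 11 and 19 with control siRNA.

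ASCL2, the basic helix-loop-helix factor of crypt base stem cells, was the member with the highest mean level per transcript length and did not follow LGR5. It measured 11.3, 12.9 and 12.1 CPM in siIDT, sino4 and siSMPLT and 10.7 and 12.1 CPM in siL2 and siNT. Every USP17 siRNA library lay above siL2, and the groups overlapped. The log2 fold change was 0.09 ± 0.12 (SE; adjusted p 0.666, edgeR), and it ranged from 0.0045 to 0.18 when 1 library was left out. ASCL2 lies on chromosome 11 from 2268495 to 2270952 on the minus strand.

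SP5, a zinc finger repressor that beta-catenin switches on in many cell types, was close to silent. It had 0 reads in siIDT, sino4, siSMPLT and siL2 and 1 read in siNT. A count of 0 allows up to 3 reads (a one-sided limit on counting error), or 0.0876 to 0.0938 CPM in those 4 libraries, so no fold change was given. SP5 lies on chromosome 2 from 170715351 to 170718078. Of the members, 5 had an entry in the RefSeq promoter table (250 bases before to 50 after the start, GRCh38.p14), with 8 promoters in all. LGR5, ASCL2, SOX9 and PROX1 had none. The promoters were searched for the TCF core CTTTGAT on both strands, since beta-catenin acts through TCF factors, and 2.62% of 35116 promoters held it. Only SP5 held it among the 8, 109 bases before the start.
SP5 promoter at chr2:170715217-170715245, plus strand, the core in capitals: gagccgctattCTTTGATgattgggtagc
The gene with this match thus had at most 1 read in any library.

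Related factors were compared from lists chosen with earlier results of these data known. Each list's counts stand beside shares over all tested genes of 5.82% called lower and 4.64% higher. Of 15 other SOX genes 6 were tested, 2 were called lower and 2 higher, a median log2 fold change of -0.12. SOX5 fell to 61.5, 62.1 and 80.5 CPM in siIDT, sino4 and siSMPLT, against 109.8 and 127 CPM in siL2 and siNT (log2 fold change -0.80 ± 0.13, SE). SOX6 fell by 0.68, SOX4 rose by 0.42 and SOX13 rose by 0.87 on the log2 scale. SOX4, SOX6 and SOX13 lost their calls without siIDT and without sino4, and SOX5 without sino4, with edgeR's adjusted p up to 0.0766, 0.0817, 0.0777 and 0.0676 in that order. At mean levels of 20.3 TPM for SOX5 and 87.8 TPM for SOX4, these were well above SOX9 at 1.10 TPM. Of 13 paralogs of ASCL2, PROX1 and SP5, 7 were tested, all of them SP factors, and 0 were called by edgeR or by DESeq2's Wald test, 0 having an unadjusted p under 0.05, with a median log2 fold change of 0.04. Each of the 4 ASCL paralogs and PROX2 had at most 3 reads in any library.

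**Figure D2:**
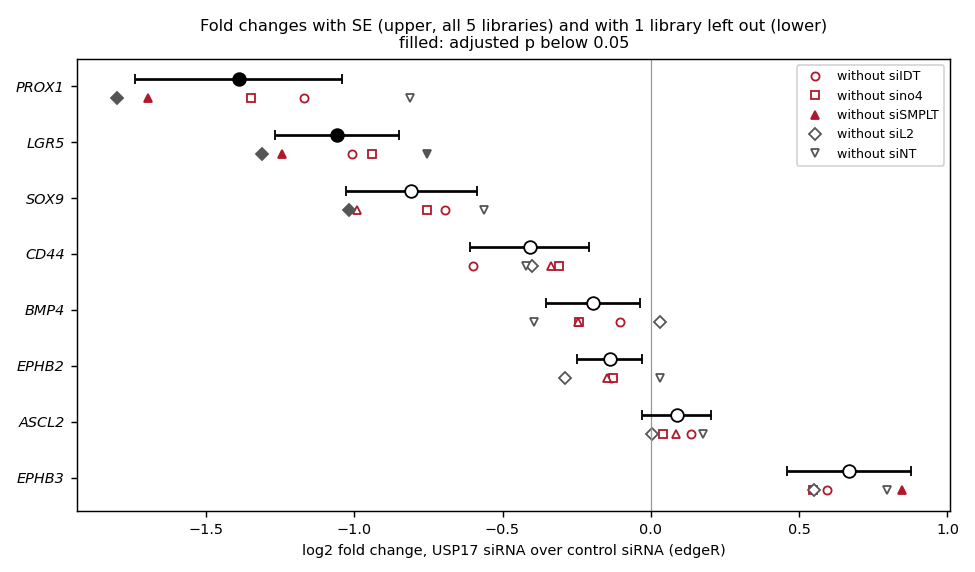
Log2 fold change of USP17 siRNA over control siRNA for the 8 tested crypt genes (edgeR), with all 5 libraries and its SE above, and with each library left out in turn below; filled symbols have an adjusted p below 0.05. PROX1, LGR5, SOX9 and CD44 stay below 0 and EPHB3 and ASCL2 above it in every refit, while BMP4 and EPHB2 change sign in 1 refit each. Of the genes that keep their sign, only ASCL2 has overlapping groups, so leaving out 1 library could hardly change the sign of the rest.

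Both EphB receptors missed the threshold, EPHB2 with overlapping groups and EPHB3 with all USP17 siRNA libraries above the controls. EPHB2, higher toward the crypt base and one of the classic beta-catenin targets in colorectal cancer cells, measured 24.1, 23.8 and 24.4 CPM in siIDT, sino4 and siSMPLT and 23.6 and 29.4 CPM in siL2 and siNT. The USP17 siRNA libraries were within 1 CPM of each other and of siL2, and siNT stood above the rest. EPHB2 had a log2 fold change of -0.14 ± 0.11 (SE; adjusted p 0.449, edgeR). It was -0.29 without siL2 and 0.030 without siNT. EPHB2 lies on chromosome 1 from 22710839 to 22921500, and its abundance-weighted length of 4271 to 4792 bases over the 5 libraries was far below the 10816 bases of the longest transcript in GENCODE 29, whose 3′ UTR holds the 5 sites described above. The RSEM tables list that transcript in the same version.

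EPHB3, the paralog that shares ephrin-B ligands with EPHB2, was the 1 member with that pattern. It had 302, 314 and 197 reads in siIDT, sino4 and siSMPLT, against 165 and 202 reads in siL2 and siNT. In CPM these were 9.24, 9.73 and 6.16 with USP17 siRNA and 4.82 and 5.72 with control siRNA, and siSMPLT lay just above siNT. EPHB3's log2 fold change of 0.67 ± 0.21 (SE) did not pass (adjusted p 0.0758, edgeR), but it passed without siSMPLT (0.0305, edgeR, log2 fold change 0.85) and with DESeq2's Wald test (0.0292). EPHB3 lies on chromosome 3 from 184561784 to 184582409.

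The length that RSEM gave EPHB3 moved with its level. GENCODE 29 lists 1 coding transcript of 4236 bases and 2 short transcripts with retained introns of 486 and 482 bases. The RSEM tables list the same 3, the short ones in the same version and the coding one in another, whose length is not given in the sources used here. RSEM's abundance-weighted length was 4082, 4234 and 3162 bases in siIDT, sino4 and siSMPLT, against 3011 and 3134 bases in siL2 and siNT. A longer value means that more of the estimated abundance was given to the coding transcript, and the 2 libraries with the most EPHB3 reads had the longest. RSEM's expected counts for the gene were only 278, 297 and 181 in siIDT, sino4 and siSMPLT, and 153 and 187 in siL2 and siNT. Because the other transcripts are so short, a few reads given to them shorten this length and raise the TPM by much. Reads per transcript were not examined, so a change in the transcripts was not tested. In TPM, which uses this length, EPHB3 measured 3.21, 3.27 and 2.74 with USP17 siRNA and 2.24 and 2.55 with control siRNA, a smaller contrast than in CPM. The ratio of EPHB3 to EPHB2 in TPM was 0.387, 0.434 and 0.351 in siIDT, sino4 and siSMPLT, against 0.314 and 0.285 in siL2 and siNT. The groups did not overlap, and the two-sided exact permutation test gave p = 0.2, the smallest that 3 against 2 libraries allow.

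**Figure D3:**
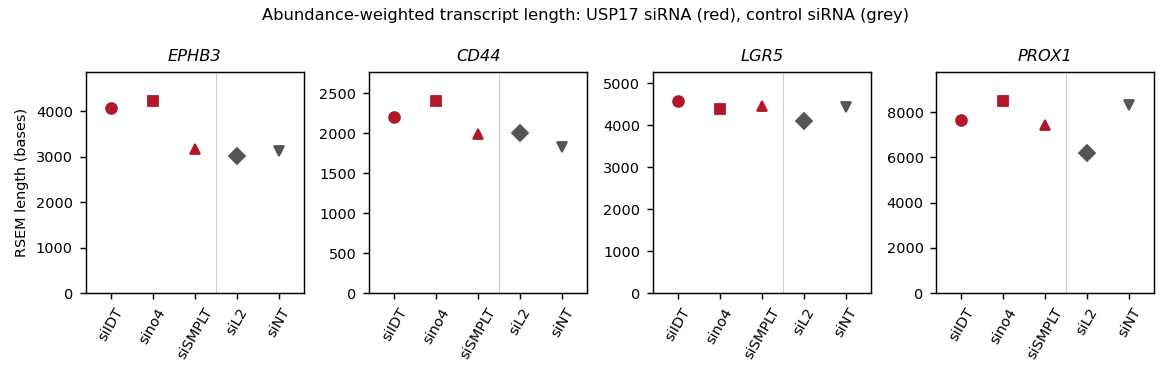
Abundance-weighted transcript length in bases, as RSEM estimated it, for EPHB3, CD44, LGR5 and PROX1 in each library (USP17 siRNA in red, control siRNA in grey). For EPHB3 the siIDT and sino4 libraries lie at 4082 and 4234 bases and the other 3 between 3011 and 3162 bases, a difference that a few reads on its short transcripts can make.

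Of 20 further Eph receptors and ephrins 16 were tested, 1 was called lower and 1 higher, with a median log2 fold change of -0.08. EPHA5 rose to 1.74, 0.960 and 1.59 CPM in siIDT, sino4 and siSMPLT, against 0.233 and 0.255 CPM in siL2 and siNT (log2 fold change 2.53 ± 0.38, SE). It had at most 57 reads in any library and a mean of 0.2 TPM, so this fold change rests on low counts. EPHA8 measured 26.8, 27.2 and 30.3 CPM with USP17 siRNA and 39.1 and 46.1 CPM with control siRNA, a fall of 0.60 on the log2 scale that was not called without siIDT or without sino4 (edgeR's adjusted p up to 0.0878). The ephrin-B ligands of EPHB2 and EPHB3 were not called, with log2 fold changes of -0.05 for EFNB1, -0.32 for EFNB2 and 0.03 for EFNB3, of which EFNB2 passed DESeq2's Wald test. EPHB4, a receptor for EFNB2, was the most abundant of the EphB genes measured, at 27.4 TPM, with a log2 fold change of 0.04.

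CD44 encodes a receptor for hyaluronan whose splice variants differ between crypt stem cells and other tissues. It measured 3.24, 2.23 and 2.31 CPM in siIDT, sino4 and siSMPLT, against 3.47 and 3.43 CPM in siL2 and siNT. The controls agreed within 2 reads and all USP17 siRNA libraries lay below them, siIDT only just. For CD44 the log2 fold change was -0.41 ± 0.20 (SE; adjusted p 0.221, edgeR). The libraries held 72 to 121 reads of the gene. CD44 lies on chromosome 11 from 35138870 to 35232402 and has 39 annotated transcripts of 352 to 5732 bases. Its abundance-weighted length was 2198, 2403 and 1989 bases with USP17 siRNA and 2005 and 1822 bases with control siRNA, with overlapping groups. Of 15 genes of CD44 splicing, hyaluronan synthesis and membrane anchoring 12 were tested and 1 was called, the hyaluronan synthase HAS3. HAS3 rose to 6.88, 6.88 and 5.72 CPM in siIDT, sino4 and siSMPLT, against 3.77 and 3.82 CPM in siL2 and siNT (log2 fold change 0.78 ± 0.15, SE), and its call was lost when siIDT or sino4 was left out (edgeR's adjusted p up to 0.104). ESRP1 and ESRP2, the epithelial splicing factors that favour CD44 variant exons, were low at 0.228 and 0.130 TPM.

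BMP4, the 1 secreted ligand among the members, measured 9.06, 11.1 and 11.1 CPM in siIDT, sino4 and siSMPLT and 13.7 and 10.2 CPM in siL2 and siNT. Only siIDT lay below both controls. BMP4's log2 fold change was -0.20 ± 0.16 (SE; adjusted p 0.457, edgeR), and it was 0.031 without siL2 and -0.39 without siNT. BMP4 lies on chromosome 14 from 53949736 to 53958761 on the minus strand. Of 25 BMP pathway genes 20 were tested and 1 was called, ID2, a target of BMP signalling. ID2 rose to 13.3, 12.8 and 12.2 CPM in siIDT, sino4 and siSMPLT, against 6.19 and 9.31 CPM in siL2 and siNT (log2 fold change 0.72 ± 0.17, SE), and its call was lost when any 1 of the USP17 siRNA libraries was left out (edgeR's adjusted p up to 0.133). ID1 and ID3, which BMP signals also induce, had log2 fold changes of 0.16 and -0.49 and were not called, and the median of the 20 was 0.16.

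Per transcript length, the members ran from 11.4 TPM for ASCL2, 10.4 for BMP4 and 7.95 for EPHB2 through 2.80 for EPHB3, 2.64 for LGR5 and 2.17 for CD44 to 1.10 for SOX9 and 0.454 for PROX1 (means of 5 libraries), with SP5 at 0.004 TPM. Neighbours in this order had ranges that did not overlap in 3 cases, BMP4 over EPHB2, EPHB2 over EPHB3 and PROX1 over SP5. The others overlapped, LGR5 reaching from 1.56 to 4.47 TPM across the libraries. With USP17 siRNA LGR5 averaged 1.82 ± 0.40 TPM (SD, n = 3), below EPHB3 at 3.07 ± 0.29 TPM. With control siRNA LGR5 averaged 3.87 ± 0.86 TPM (SD, n = 2), above EPHB3 at 2.40 ± 0.22 TPM. CTNNB1, which encodes beta-catenin, averaged 84.5 ± 0.27 TPM (SD, n = 3) with USP17 siRNA and 144 ± 8.38 TPM (SD, n = 2) with control siRNA.

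**Figure D4:**
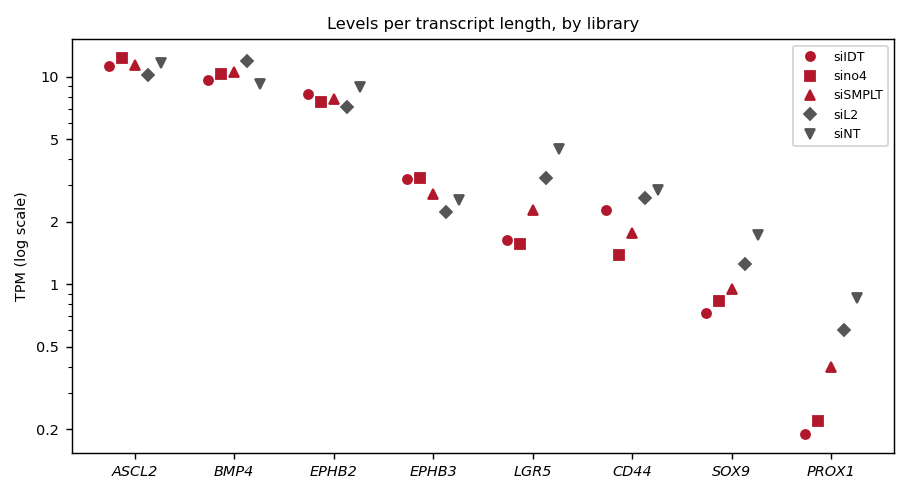
Level per transcript length (TPM, log scale) of 8 crypt genes in each library, ordered by their mean over the libraries, with USP17 siRNA in red and control siRNA in grey; SP5 is left out because it was listed at 0 in 4 of 5 libraries. ASCL2 runs from 10.2 to 12.3 TPM over the libraries, and PROX1, the lowest gene shown, from 0.19 to 0.86 TPM.

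LGR5, SOX9 and PROX1 lay below each control alone in all 3 USP17 siRNA libraries, which restates that their groups did not overlap. In siIDT they lay at -0.85, -0.80 and -1.32 on the log2 scale against siL2 and at -1.40, -1.25 and -2.30 against siNT. In siSMPLT the differences were smaller, at -0.44, -0.25 and -0.33 against siL2 and at -0.996, -0.70 and -1.31 against siNT. The 3 comparisons share their controls. CTNNB1 showed no such gradient and lay between -0.82 and -0.84 against siL2 in all 3 libraries.

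Of 25 further genes known from the crypt base 21 were tested, 6 were called lower and 2 higher, with a median log2 fold change of -0.24. The shares over all tested genes were 5.82% lower and 4.64% higher, with a median of 0.01. The calls were led by TNFRSF19, a Wnt target receptor, which fell to 43.7, 45.3 and 49.99 CPM in siIDT, sino4 and siSMPLT, against 105 and 123 CPM in siL2 and siNT. AXIN2 (-0.57), the repulsive guidance gene RGMB (-0.56), NKD1 (-0.61), the EGF receptor inhibitor LRIG1 (-0.64) and ZNRF3 (-0.43) also fell. SOX4 (0.42) and CD24 (0.61), a surface glycoprotein, rose. RNF43, the partner of ZNRF3 in removing Wnt receptors, had a log2 fold change of 0.21 and was not called, nor were CDCA7 (-0.22), MSI1 (-0.31) and IGFBP4 (-0.67). NKD1, ZNRF3, SOX4 and CD24 lost their calls without siIDT and without sino4, and LRIG1 and RGMB without sino4 (edgeR's adjusted p at most 0.123).

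Among 15 genes of differentiated absorptive cells 6 were tested, 2 were called higher and 0 lower, with a median log2 fold change of 0.81. Over all tested genes 4.64% were called higher and 5.82% lower, with a median of 0.01. CDH17, an intestinal cadherin, rose to 50.05, 52.0 and 47.7 CPM in siIDT, sino4 and siSMPLT, against 27.1 and 27.3 CPM in siL2 and siNT. SI, the sucrase-isomaltase gene, rose to 3.64, 1.49 and 1.31 CPM with USP17 siRNA, against 0.525 and 0.255 CPM with control siRNA, and lost its call without siIDT, sino4 or siNT (edgeR's adjusted p up to 0.0793). SI had at most 119 reads in any library and a mean of 0.45 TPM, so its rise rests on low counts. KRT20 (0.77), CEACAM1 (0.85), CA2 (-0.44) and DPP4 (-0.32) were not called, and 7 of the 15, among them FABP1 and SLC26A3, had at most 3 reads in any library. The 15 genes summed to 59.2 to 65.9 CPM with USP17 siRNA and to 35.8 to 37.9 CPM with control siRNA, and CDH17 made up most of each sum. Of 14 secretory and Paneth cell genes 3 were tested, and 0 were called by edgeR or by DESeq2's Wald test, with 0 at an unadjusted p under 0.05; the secretory factor ATOH1 had a log2 fold change of 0.15.

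**Figure D5:**
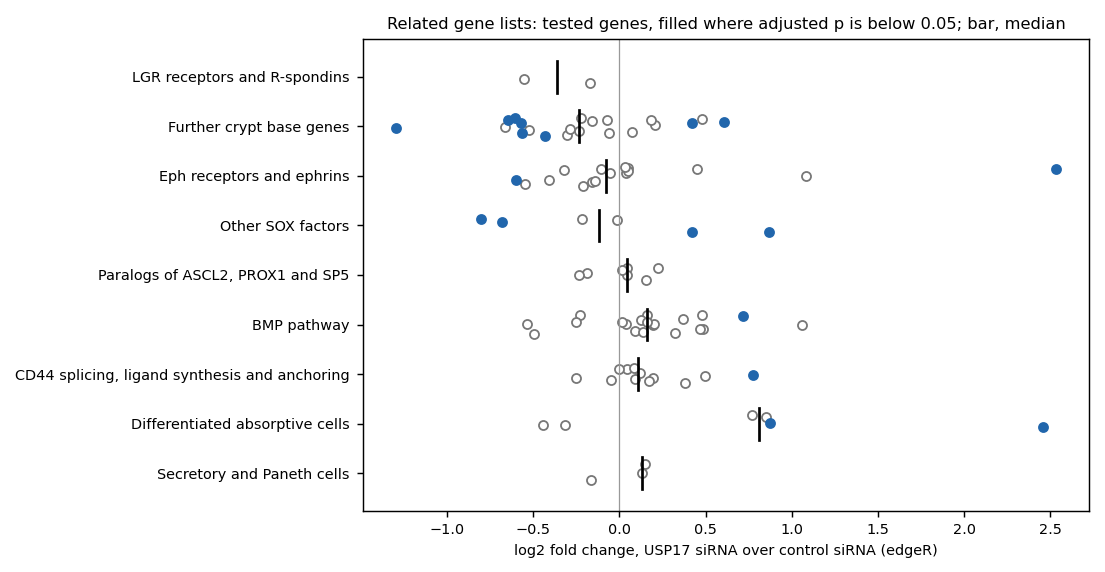
Log2 fold change of USP17 siRNA over control siRNA (edgeR) for the tested genes of 9 related lists, filled where the adjusted p was below 0.05, with each list's median as a bar. The crypt base list has 6 filled genes below 0 and 2 above it, and the absorptive list 2 above it.

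The related lists together held 17 called genes, 9 lower and 8 higher. The lists were chosen with earlier results of these data known, and 10.5% of all tested genes were called. Leaving out siIDT kept 7 of these calls, leaving out sino4 kept 4 and leaving out siSMPLT, siL2 or siNT kept 16, 17 and 16. All 17 kept their sign in each of the 5 refits, but their groups did not overlap, so leaving out 1 library could hardly change it. TNFRSF19, AXIN2, CDH17 and EPHA5 were called whichever USP17 siRNA library was left out. Of the tested markers of fibroblasts, leukocytes and neuroendocrine cells, 3 in each list, 0 were called by edgeR or by DESeq2's Wald test, and 1 fibroblast marker had an unadjusted p under 0.05. None of the 4 endothelial markers had enough reads to be tested, and the neuroendocrine markers summed to 6.35 to 8.54 CPM with USP17 siRNA and to 6.19 to 11.1 CPM with control siRNA. Leukocyte markers, 3 of 6 of them tested, summed to 48.2 to 53.4 CPM with USP17 siRNA and to 45.7 to 57.2 CPM with control siRNA, nearly all of it PTPRC. CD3E and CD68 had at most 3 reads on their own strand, but RSEM gave CD68 2.16, 1.54 and 0.86 TPM in siIDT, sino4 and siSMPLT and 1.53 and 1.46 TPM in siL2 and siNT, and CD3E 0 in all 5. Fibroblast markers, 3 of 6 tested, summed to 42.6 to 56.2 CPM with USP17 siRNA and to 51.5 to 59.7 CPM with control siRNA, with COL1A2 and DCN at 3 reads or fewer.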

How the data were processed

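Libraries of poly(A) RNA came from a KAPA kit, per the labels' protocols. Per the submitters' processing notes, bcl2fastq 2.20, STAR 2.7.1a and RSEM 1.3.2 were used with GRCh38, while the annotation's release and the strand option were "not given in the sources used here". Gene-level tables as deposited hold whole-number read counts per gene in STAR's layout, of which the own-strand column was used (18.7 to 19.9 times the reads of the other strand). Expected counts (rounded for use), TPM and abundance-weighted lengths are the authors' RSEM output, as deposited. Gene versions in the tables differ from GENCODE 29, used here for coordinates and 3′ UTRs, for all 9 members, so its transcript lengths need not be RSEM's.

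Reads not assigned to 1 gene on the own strand (unmapped, multi-mapped, ambiguous or on no gene's own strand, together 22.8% to 24.4%) were left out. Genes were kept by filterByExpr (minimum count 10, total 15), scaled by TMM, and compared with edgeR 4.0.16 (R 4.3.3), two-sided, adjusted over all tested genes. CPM use the TMM-scaled library size, and log2 CPM a prior count of 2. The test was run on simulated data first. Alternatives were DESeq2 1.42.0, limma-voom (limma 3.58.1), other filters, other count columns, a threshold of 0.10 and leaving out each library. No pair of libraries agreed within sampling noise (lowest chi-square per degree of freedom 6.02). This value ran up to 11.9 among the USP17 siRNA libraries and was 29.2 between the 2 controls. Between a USP17 siRNA library and a control it ran from 30.7 to 51.0, so the controls were nearly as far apart as the closest such pair. Of 60651 identifiers 60437 had a symbol. Permutation and sequence searches used Python 3.11.15 and scipy 1.17.1. For 3′ UTRs, the longest per gene in GENCODE 29 was taken.

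The members and lists were chosen with earlier results of these data known. Named are all members, CTNNB1, up to 4 called genes per list, up to 2 further genes per list by level, and the 3 profiles nearest to LGR5; others named were chosen after their values were seen.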

Additional observations from a re-analysis of the deposited data

How the results depend on the processing

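The number of crypt genes called was 2 by edgeR, 4 with DESeq2's Wald test, 1 with limma-voom and 4 at an adjusted p of 0.10, and 0 to 3 when 1 library was left out (0 without siIDT and 0 without sino4). Genes called over the whole table numbered 1710 by edgeR, 2342 with DESeq2's Wald test, 1676 with limma-voom and 3074 at an adjusted p of 0.10. They numbered 130 to 1041 when 1 USP17 siRNA library was left out. Related-list genes called numbered 17, with 4 to 30 when 1 library was left out. BMP4 ranged from -0.39 (without siNT) to 0.031 (without siL2) and EPHB2 from -0.29 (without siL2) to 0.030 (without siNT), never called. No other member changed sign in any alternative, LGR5 ranging from -1.31 to -0.76, PROX1 from -1.80 to -0.81, SOX9 from -1.02 to -0.56 and EPHB3 from 0.55 to 0.85. Of the members that kept their sign, only ASCL2 had overlapping groups, so leaving out 1 library could hardly change the sign of the rest. LGR5 was called in 10 of 12 alternatives, PROX1 in 7, SOX9 in 4 and EPHB3 in 2. With CPM divided by effective length, the order of levels was the same. TPM uses the same RSEM lengths, so only the read counts and their scaling differed and the order could hardly change. The looser threshold admits more calls by construction; for the other alternatives the cause was not tested. Leaving out a control raised the whole-table calls to 2430 (siL2) and 2633 (siNT), while leaving out a USP17 siRNA library lowered them. Fits with a single control assume that it varies as the USP17 siRNA libraries do. No paired analysis was possible because the labels carry no replicate numbers. Depth limits PROX1, SOX9 and CD44, at 32 to 178 reads a library.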
